A study of Caenorhabditis elegans with 66 samples.

Results

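The 3 small RNAs described here, novel_21ur-0608, 21ur-6702 and 21ur-2944, are piRNAs of Caenorhabditis elegans that had more counts in mut-16 or hrde-1 mutants than in wild type. They are 3 of the 17114 piRNAs in the deposited count table. Each was chosen from the measured values, as the most abundant piRNA among those higher in the mutant in 1 comparison: novel_21ur-0608 in mut-16 at 48 h, 21ur-6702 in hrde-1 at 48 h and 21ur-2944 in hrde-1 at 72 h. Their levels in mut-16, hrde-1 and the wild type they were chosen against are therefore given as a description, with no test.

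Small RNA was sequenced from whole worms of 6 mutant genotypes and wild type (N2), as 48 h L4 larvae and 72 h gravid adults. The libraries came in 3 sets, each compared with its own wild type, and 54 libraries in 18 groups of 3 were analysed. Set B held mut-16(-), hrde-1(-), prg-1(-), a mutant of both snpc genes (snpc-1.2(-); snpc-1.3(-)), and wild type. Set A held snpc-1.2(-), snpc-1.3(-) and wild type, and of set C wild type was used. The labels give no alleles beyond the gene names. Each library was made from RNA of many animals, so that fewer germ cells and less of a piRNA per cell cannot be told apart. The mutated genes are not piRNAs, so the genotypes were not checked in these counts.

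piRNAs are short RNAs, called 21U RNAs in the worm, that are bound in the germline by the Argonaute protein PRG-1 and guide it to complementary transcripts. Most are transcribed one by one from their own small loci, largely on chromosome IV. Once PRG-1 binds a target, secondary small RNAs are made on it by a machinery that needs MUT-16, a scaffold of the mutator foci, and some of these are carried into the nucleus by the Argonaute HRDE-1. MUT-16 and HRDE-1 thus act after the piRNA has been made. SNPC-1.2 and SNPC-1.3 are relatives of a subunit of the complex that activates small nuclear RNA genes, and SNPC-1.3 is known from earlier work for its part in the transcription of piRNAs of the male germline. Hermaphrodites make sperm late in larval life and oocytes as adults.

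The 3 sequences, as the authors' deposited table gives them, are shown because they are the features counted. Capitals mark the seed, bases 2 to 8 from the 5′ end.
novel_21ur-0608: tCATTTATtaactctttaacc
21ur-6702: tTTCTGAAtcgcatacgcatt
21ur-2944: tGCTTTGAtcaattcccgata

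All 3 are 21 bases long and begin with T (U in the RNA), as do 97.7% of the 13211 piRNAs whose sequences the deposited table lists. Their seeds differ from each other. novel_21ur-0608 has a GC content of 23.8%, and the other two have 38.1%, against a median of 33.3% over all listed piRNAs. No other listed piRNA had the same sequence as any of the 3 (0 cases), and the closest differed at 6 bases for novel_21ur-0608 and 21ur-6702 and at 7 bases for 21ur-2944. The seed of novel_21ur-0608 was shared with 1 listed piRNA, that of 21ur-6702 with 5 and that of 21ur-2944 with 3.

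In WBcel235, novel_21ur-0608 lies on the plus strand at chrIII:12972961-12972981. It is among 198 listed piRNAs on that chromosome, against 92.0% of all listed piRNAs on chromosome IV. It overlaps no annotated gene. The nearest protein-coding gene is bckd-1A on the minus strand, 463 bases away, and the next is ZK1010.2, 2087 bases away. It carries no annotated 21ur name, and 1751 piRNAs of the count table share that status.

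21ur-6702 (WBGene00167967, B0513.60) lies on the plus strand at chrIV:13870711-13870731, inside prdh-1 but on the other strand and outside its exons. 21ur-2944 (WBGene00046607, Y37A1A.12) lies on the plus strand at chrIV:13906388-13906408, inside Y37A1A.2, again on the other strand and outside exons. Their starts are 35677 bases apart, with 77 listed piRNAs between them. At the locus of 21ur-2944, 21ur-12783 and 21ur-14528 start 5 and 4 bases earlier on the same strand and share 16 and 17 bases with it. How the authors' counting assigned reads of such overlapping piRNAs is not given in the sources used here, so a few of these counts could be divided between the 3. The overlapping piRNAs never exceeded 26 and 16 counts in a library, and summed over the 54 libraries they had 0.615% and 0.637% of the counts of 21ur-2944. The nearest piRNAs to 21ur-6702, 21ur-10602 and 21ur-14362, had 2.17% and 0.552% of its counts over the same libraries.

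The counts are of piRNAs alone, and a level is given as CPM (counts per 1000000 piRNA counts of the same library). piRNA counts per library ran from 3167 to 2276260. As a share of wild type of the same set and age, mut-16 totals were 137% at 48 h and 236% at 72 h. Those of hrde-1 were 101% and 104%. snpc-1.2 had 64.2% and 25.7%, and snpc-1.3 had 68.7% and 105%. The prg-1 mutant had 0.779% and 1.09%, and the mutant of both snpc genes had 2.83% and 3.52%. One wild-type library of set C at 72 h, replicate 3, had 9912 counts, where the other 2 of its group had 318641 and 740102. CPM is a share, so it also moves when the rest of the piRNAs do. Raw counts are given beside it where the totals differ most. They move with the depth of sequencing, and the reads sequenced or mapped per library are not among the values used here.

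In mut-16 and hrde-1, novel_21ur-0608 was higher than in wild type at both ages, 21ur-6702 was higher in hrde-1 at 48 h, and 21ur-2944 was higher in hrde-1 at both ages. In mut-16, 21ur-6702 and 21ur-2944 lay close to wild type in CPM. In raw counts, where the larger mut-16 totals are not divided out, their ratios to wild type were 2.24 and 2.27 at 72 h, with no overlap. At 48 h the ratios were 1.66 and 1.71, and only 21ur-2944 overlapped wild type in counts. Both mutants were set against the same wild-type libraries, so their differences from wild type are not independent of each other.

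novel_21ur-0608 had 99.8, 78.8 and 89.0 CPM in mut-16 and 96.6, 70.2 and 74.2 CPM in hrde-1 at 48 h, against 9.59, 15.0 and 10.4 CPM in wild type. At 72 h it had 40.0, 35.1 and 49.4 CPM in mut-16 and 59.8, 39.8 and 54.6 CPM in hrde-1, against 10.0, 7.16 and 7.96 CPM in wild type. Every mutant library was above every wild-type library of its age, and within each age the lowest mutant library was more than 3 times the highest wild-type one. The counts behind these levels were 62 to 149 in mut-16 and 39 to 107 in hrde-1, against 6 to 12 in wild type. Every CPM was above wild type for 8.98% of all 8512 piRNAs tested in mut-16 and 6.64% in hrde-1 at 48 h, and for 9.57% and 6.97% at 72 h. The ratio of mean CPM of novel_21ur-0608 to wild type was 7.64 in mut-16 and 6.88 in hrde-1 at 48 h, with 4.96 in mut-16 and 6.14 in hrde-1 at 72 h. In raw counts, where the larger mut-16 totals are not divided out, the ratio was 10.8 at 48 h and 11.6 at 72 h in mut-16. The fitted log2 fold changes in mut-16 were 2.98 (SE 0.40) at 48 h and 2.46 (SE 0.43) at 72 h. In hrde-1 they were 2.78 (SE 0.40) at 48 h and 2.59 (SE 0.44) at 72 h.

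21ur-6702 had 1332, 1441 and 1284 CPM in hrde-1 at 48 h, against 582, 717 and 450 CPM in wild type. The lowest hrde-1 library stood well above the highest wild-type library. mut-16 had 656, 806 and 670 CPM at 48 h and overlapped wild type. At 72 h, it had 107, 167 and 127 CPM in hrde-1 and 78.2, 71.6 and 86.1 CPM in mut-16, against 68.5, 64.5 and 117 CPM in wild type. The third wild-type library, which its label marks as resequenced and which stood above the other 2 of its group, overlapped hrde-1, and the mut-16 values lay within the wild-type range. The log2 fold change in hrde-1 was 1.22 (SE 0.30) at 48 h and 0.69 (SE 0.32) at 72 h, and in mut-16 it was 0.35 (SE 0.30) and 0.08 (SE 0.32). The mut-16 value at 72 h was -0.020 with DESeq2 size factors and -0.20 with set B alone in the fit.

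21ur-2944 had 1377, 2262 and 1267 CPM in hrde-1 at 72 h, against 703, 695 and 533 CPM in wild type. The groups did not overlap, and the second hrde-1 library held 2444 of its 4339 counts. At 48 h it had 465, 305 and 297 CPM in hrde-1, against 236, 161 and 192 CPM in wild type. These groups did not overlap in CPM either. In raw counts they did, with 515, 213 and 248 counts in hrde-1 and 221, 129 and 166 counts in wild type. mut-16 overlapped wild type at both ages, with 303, 199 and 215 CPM at 48 h and 620, 580 and 690 CPM at 72 h. The log2 fold change in hrde-1 was 1.34 (SE 0.33) at 72 h and 0.86 (SE 0.34) at 48 h. In mut-16 it was 0.13 (SE 0.33) at 72 h, with -0.031 when the sum of piRNA counts was the only scaling, and 0.34 (SE 0.34) at 48 h.

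**Figure D1:**
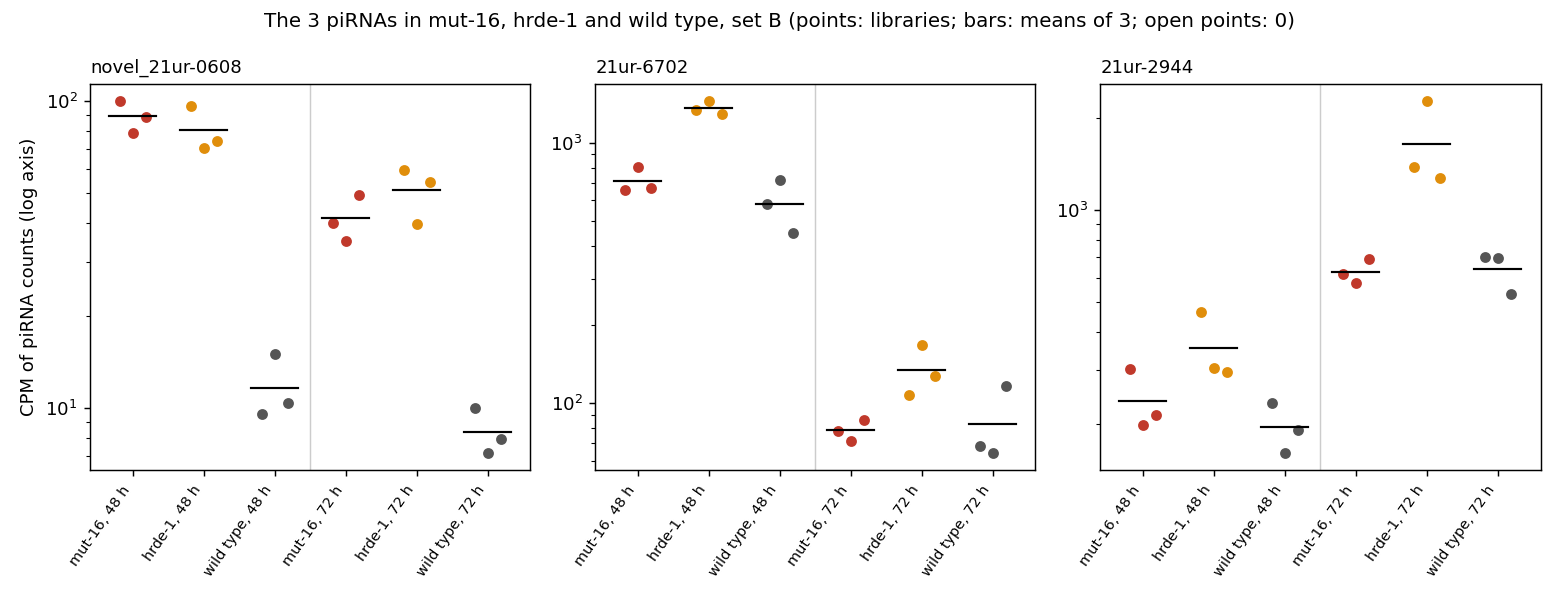
Level of each piRNA in CPM of piRNA counts on a log axis, in mut-16, hrde-1 and wild-type libraries of set B at 48 h and 72 h; points are libraries and bars are means of 3. The novel_21ur-0608 values of both mutants sit between 35.1 and 99.8 CPM, all above the wild-type libraries at 7.16 to 15.0 CPM.

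The choice took the most abundant of the piRNAs that were called higher at least 2-fold with no overlap of libraries. In mut-16 at 48 h, 0.399% of the 8512 piRNAs tested met that rule and 1 of the 3 did, novel_21ur-0608, ahead of novel_21ur-1488 at 70.5 CPM in mut-16 and 34.4 CPM in wild type. In hrde-1 at 48 h, 0.223% met it and 2 of the 3 did, with 21ur-6702 ahead of 21ur-885, which averaged 1011 CPM in hrde-1 and 444 CPM in wild type, and novel_21ur-0608 in place 12 of 19. In hrde-1 at 72 h, 0.352% met it and 2 of the 3 did, with 21ur-2944 ahead of 21ur-3274, which averaged 844 CPM in hrde-1 and 386 CPM in wild type, and novel_21ur-0608 in place 18 of 30. In mut-16 at 72 h, 0.987% met it, and novel_21ur-0608 was in place 22 of 84, behind 21ur-5883 with 396 CPM in mut-16 and 190 CPM in wild type, the highest of that list. The order within each list is by abundance in the mutant, not by fold change. These shares and places follow from the choice and are no result about the 3 piRNAs.

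Levels across age in wild type could be tested in sets A and C, whose libraries played no part in the choice. The choice itself ranked piRNAs by abundance at 1 age, 48 h for 21ur-6702 and 72 h for 21ur-2944. It may therefore favour piRNAs that are high at that age, and its part in the directions below was not tested. 21ur-6702 fell and 21ur-2944 rose at 72 h in both sets, and novel_21ur-0608 passed the test in neither. In set A, 21ur-6702 had 68.7, 63.7 and 125 CPM at 72 h, against 679, 746 and 728 CPM at 48 h. 21ur-2944 had 661, 839 and 677 CPM at 72 h, against 146, 223 and 159 CPM at 48 h. For both piRNAs the ages did not overlap, in opposite directions, where every CPM at 72 h was above 48 h for 30.7% of all piRNAs tested and below it for 45.4%. novel_21ur-0608 had 1.64, 5.31 and 6.31 CPM at 72 h, against 6.66, 10.3 and 11.1 CPM at 48 h, from 1 to 12 counts a library. Its ages did not overlap either, with 72 h below 48 h.

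Of the 8512 piRNAs tested, 77.3% were called in this comparison, so a call was frequent among all piRNAs. edgeR fitted all libraries together, scaled by TMM factors. 21ur-6702 had a log2 fold change of -2.61 (edgeR adjusted p 5.9e-11, SE 0.33) and 21ur-2944 one of 2.53 (edgeR adjusted p 1.1e-09, SE 0.35). novel_21ur-0608 stood at -0.53 (edgeR adjusted p 0.40, SE 0.61). The median over all piRNAs tested was 0.07 with TMM and -0.55 with DESeq2 size factors. Relative to that median, 21ur-6702 stood at -2.68 and -2.66 under these scalings, and 21ur-2944 at 2.46 and 2.43.

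In set C, 42.6% of all piRNAs tested were called. 21ur-6702 had 41.9, 22.0 and 101 CPM at 72 h, against 315, 79.9 and 186 CPM at 48 h. The third 72 h value rests on 1 count in the library of 9912, and it is the one that overlaps the younger group. 21ur-2944 had 549, 367 and 202 CPM at 72 h, the last of them from 2 counts, against 257, 130 and 127 CPM at 48 h. The same library overlapped here too. The log2 fold change of 21ur-6702 was -2.30 (edgeR adjusted p 4.8e-06, SE 0.41) and that of 21ur-2944 was 1.35 (edgeR adjusted p 0.0017, SE 0.36). Without the library of 9912 counts they were -2.30 and 1.58, and both were called. Without wild-type replicate 1 at 72 h, the 21ur-2944 value was 0.91 and was not called (edgeR adjusted p 0.061), and in limma on the authors' corrected log2 CPM it was 0.87 (adjusted p 0.10).

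novel_21ur-0608 had 7, 7 and 5 counts at 72 h and 28, 7 and 8 counts at 48 h in set C. In CPM that was 9.46, 22.0 and 504 at 72 h, against 33.7, 17.5 and 22.6 at 48 h, so that the 504 CPM of the small library came from 5 counts. Its log2 fold change was -0.08 (edgeR adjusted p 0.92, SE 0.54) and was -0.70 without that library. Its sign changed with the scaling.

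Wild type of set B, which the choice used, gave values of the same kind, shown with no test. At 72 h 21ur-6702 averaged 83.2 ± 29.1 CPM, against 583 ± 134 CPM at 48 h, and 21ur-2944 averaged 643 ± 95.5 CPM, against 196 ± 37.2 CPM (SD, n = 3 each). The same direction was seen in both mutants. hrde-1 averaged 134 ± 30.2 CPM of 21ur-6702 at 72 h, against 1352 ± 80.1 CPM at 48 h, and mut-16 averaged 78.6 ± 7.25 CPM, against 711 ± 82.7 CPM (SD, n = 3 each).

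Loss of snpc-1.2 took 21ur-2944 to a few counts at both ages, while the other two were not lost. 21ur-2944 had 1, 2 and 2 counts in snpc-1.2 at 48 h, against 153, 261 and 158 counts in wild type. In snpc-1.2 at 72 h it had 3, 0 and 2 counts, against 404, 790 and 429 counts in wild type. No library of the mutant came near the wild-type range. Every CPM was below wild type for 28.3% of all piRNAs tested at 48 h and 32.3% at 72 h. Pooled over libraries, its CPM in snpc-1.2 was 0.0136 of wild type at 48 h, with a 95% interval of 0.00441 to 0.0320, and 0.0120 of wild type at 72 h, with an interval of 0.00388 to 0.0280. These intervals cover counting error only.

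21ur-6702 had 1072, 1095 and 944 CPM in snpc-1.2 at 48 h, against 679, 746 and 728 CPM in wild type, and the groups did not overlap in CPM. In raw counts they did, with 853, 730 and 564 counts in snpc-1.2 and 714, 872 and 722 counts in wild type. Its levels in snpc-1.2 at 72 h were 1275, 1122 and 1283 CPM, against 68.7, 63.7 and 125 CPM in wild type. Its raw counts at that age, 197, 149 and 353, were also above the 42, 60 and 79 counts of wild type, although the mutant libraries held 25.7% of the wild-type total. Between ages, snpc-1.2 averaged 1227 CPM of 21ur-6702 at 72 h and 1037 CPM at 48 h, with no overlap. The share of all piRNAs with no overlap was not computed for this comparison. Raw counts of 21ur-6702 went the other way and were lower in every library at 72 h. Dividing CPM by the TMM factors, 2.19 to 2.57 at 72 h and 1.60 to 1.71 at 48 h, would also put the 72 h mean lower. The mean piRNA total of the mutant was 187500 at 72 h, against 686736 at 48 h.

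novel_21ur-0608 had 22.6, 19.5 and 23.4 CPM in snpc-1.2 at 48 h, against 6.66, 10.3 and 11.1 CPM in wild type. In snpc-1.2 at 72 h the levels were 123, 105 and 90.9 CPM, against 1.64, 5.31 and 6.31 CPM in wild type. The groups did not overlap at either age, as was so in the higher direction for 17.7% of all piRNAs tested at 48 h and 46% at 72 h. The 72 h levels came from 19, 14 and 25 counts in snpc-1.2 and from 1, 5 and 4 counts in wild type.

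At 48 h 43.6% of all piRNAs tested were called in snpc-1.2, and at 72 h 66.1% were. The direction of these calls turned on the scaling. At 48 h 5 were higher and 3704 lower with TMM, against 783 higher and 2063 lower with DESeq2 size factors and 264 higher and 2223 lower by the sum of piRNA counts. At 72 h 1961 were higher and 3669 lower with TMM, and with DESeq2 size factors there were 3948 higher and 2708 lower calls. In edgeR the log2 fold change of 21ur-2944 was -6.93 (SE 0.57, adjusted p 1.6e-20) at 48 h and -8.23 (SE 0.56, adjusted p 1.0e-24) at 72 h. They were -6.07 and -6.32 when the sum of piRNA counts was the only scaling. The mutant held 5 counts of 21ur-2944 at each age, and these SE values are smaller than the counting intervals above imply. At 72 h the log2 fold change of novel_21ur-0608 was 2.50 (edgeR adjusted p 2.5e-05, SE 0.54) and that of 21ur-6702 was 1.88 (edgeR adjusted p 3.7e-07, SE 0.33). They were 4.47 and 3.85 by the sum alone. At 48 h neither was called: novel_21ur-0608 stood at 0.23 (edgeR adjusted p 0.67, SE 0.46) and 21ur-6702 at -0.46 (edgeR adjusted p 0.20, SE 0.30).

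The 48 h values of these piRNAs turned on the scaling. The TMM factors were 1.60 to 1.71 in snpc-1.2 at 48 h, against 0.801 to 0.880 in wild type, and 2.19 to 2.57 in snpc-1.2 at 72 h, against 0.565 to 0.622 in wild type. The median log2 fold change over all piRNAs tested was -0.83 at 48 h and -0.42 at 72 h with TMM, and 0.14 and 1.51 by the sum alone. With DESeq2 size factors in edgeR, novel_21ur-0608 was called higher at 48 h (1.47, adjusted p 0.018), and so was 21ur-6702 (0.82, adjusted p 0.045). With set A alone in the fit, 21ur-6702 was called lower (-0.54, edgeR adjusted p 0.045). Without snpc-1.2 replicate 3 its value was 0.25. Relative to the median of all piRNAs, the values moved little: 21ur-6702 stood at 0.37 at 48 h and 2.30 at 72 h with TMM, and at 0.39 and 2.34 by the sum alone. novel_21ur-0608 stood at 1.07 and 2.92 with TMM and at 1.07 and 2.96 by the sum, and 21ur-2944 at -6.10 and -7.81 with TMM and at -6.20 and -7.83 by the sum.

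The change with snpc-1.2 differed between ages for novel_21ur-0608 and 21ur-6702. The difference, 72 h minus 48 h, was 2.27 (edgeR adjusted p 0.011, SE 0.73) and 2.33 (edgeR adjusted p 5.0e-05, SE 0.44), where 31% of all piRNAs tested passed that test and the median difference was 0.31. For 21ur-2944 it was -1.3 (edgeR adjusted p 0.49, SE 1.15), from 5 counts in the mutant at each age.

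In snpc-1.3 at 48 h, 21ur-6702 fell, while 21ur-2944 and novel_21ur-0608 rose. 21ur-6702 had 49.5, 60.6 and 44.9 CPM in snpc-1.3, against 679, 746 and 728 CPM in wild type. 21ur-2944 had 559, 545 and 708 CPM in snpc-1.3, against 146, 223 and 159 CPM in wild type. novel_21ur-0608 had 24.1, 25.1 and 23.1 CPM in snpc-1.3, against 6.66, 10.3 and 11.1 CPM in wild type. For all 3 the groups did not overlap, where every CPM was above wild type for 32.4% of all piRNAs tested and below it for 43.3%. In this comparison 77.3% of all piRNAs tested were called, so that 3 calls of 3 are near the background.

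The log2 fold changes at 48 h were -3.27 (edgeR adjusted p 1.8e-14, SE 0.34) for 21ur-6702, 2.31 (edgeR adjusted p 8.6e-09, SE 0.35) for 21ur-2944 and 1.87 (edgeR adjusted p 0.00010, SE 0.45) for novel_21ur-0608. The median of all piRNAs tested was 0.31 with TMM and -0.27 with DESeq2 size factors. Relative to it, the values were -3.58, 2.00 and 1.56 with TMM, in the same order, and -3.60, 1.95 and 1.54 with DESeq2 size factors. With the DESeq2 Wald test, novel_21ur-0608 stood at 1.29 and was not called (adjusted p 0.062).

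At 72 h, 9.39% of all piRNAs tested were called in snpc-1.3, and 1 of the 3 was among them. 21ur-6702 had 30.4, 21.9 and 29.7 CPM in snpc-1.3, against 68.7, 63.7 and 125 CPM in wild type, and fell, with a log2 fold change of -1.44 (edgeR adjusted p 0.0034, SE 0.37). Without wild-type replicate 3, the library at 125 CPM, the value was -1.11 and was not called (edgeR adjusted p 0.094). 21ur-2944 had 755, 903 and 922 CPM in snpc-1.3, against 661, 839 and 677 CPM in wild type. These groups overlapped, and the log2 fold change was 0.41 (edgeR adjusted p 0.60, SE 0.33). novel_21ur-0608 had 3, 9 and 5 counts in snpc-1.3 and 1, 5 and 4 counts in wild type, and its log2 fold change of 0.85 (edgeR adjusted p 0.56, SE 0.65) was not resolved at this depth.

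The change with snpc-1.3 differed between ages for 21ur-6702, by 1.83 (edgeR adjusted p 0.0023, SE 0.50), and for 21ur-2944, by -1.90 (edgeR adjusted p 0.00099, SE 0.47). For novel_21ur-0608 the difference was -1.02 (edgeR adjusted p 0.34, SE 0.81). Of all piRNAs tested, 39% passed. Both snpc mutants of set A were set against the same wild-type libraries, and the age comparison of set A used them as well, so these results are not independent of each other.

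**Figure D2:**
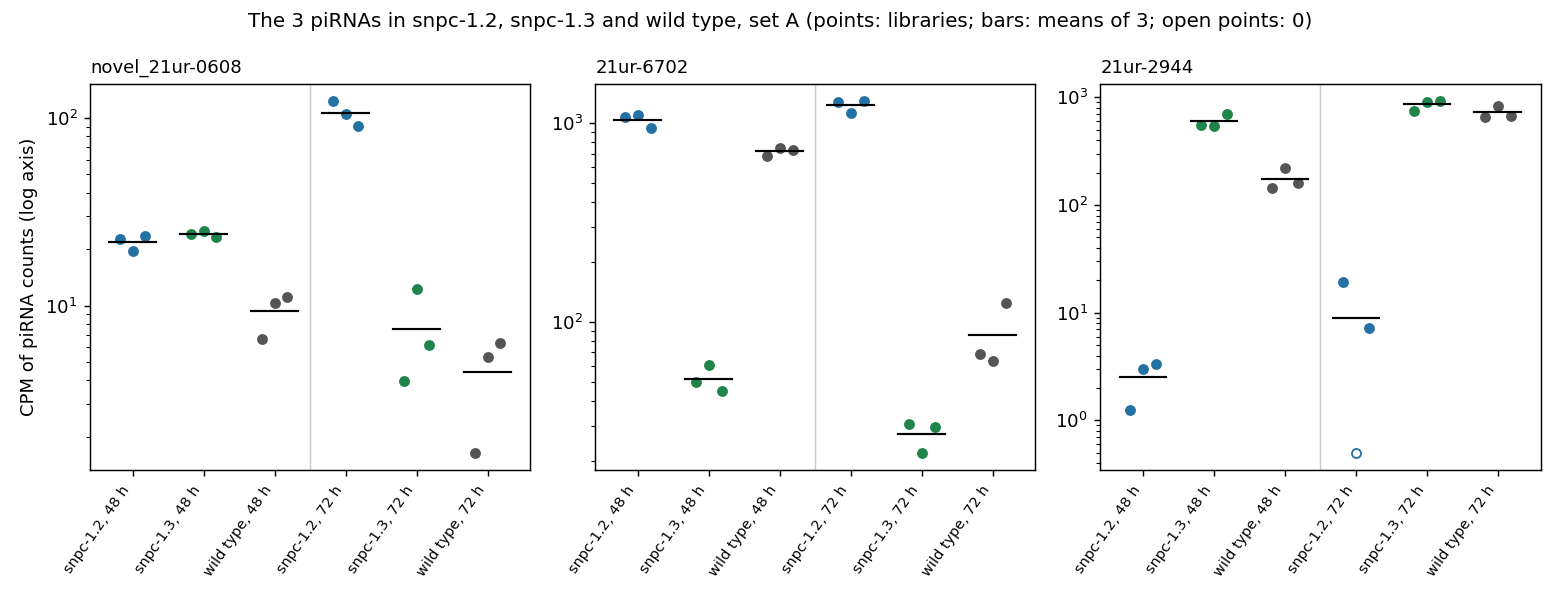
Level of each piRNA in CPM of piRNA counts on a log axis, in snpc-1.2, snpc-1.3 and wild-type libraries of set A at 48 h and 72 h; points are libraries, bars are means of 3 and the open point is a library at 0. 21ur-2944 is at 0 to 19.4 CPM in snpc-1.2, against 146 to 839 CPM in wild type, while 21ur-6702 is at 21.9 to 60.6 CPM in snpc-1.3.

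**Figure D3:**
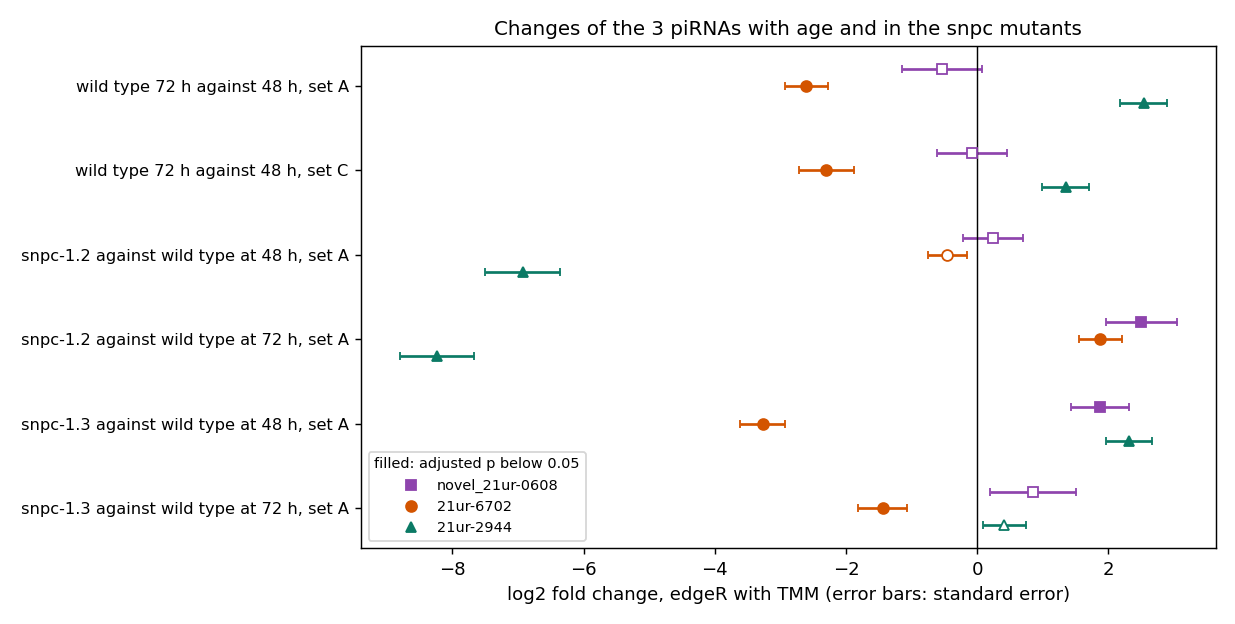
Log2 fold change from edgeR with TMM scaling for each piRNA in the comparisons that could be tested, with standard errors as bars; filled symbols have an adjusted p below 0.05. 21ur-6702 and 21ur-2944 lie on opposite sides of 0 with age in both sets and in snpc-1.3 at 48 h. The bars of 21ur-2944 in snpc-1.2 are narrower than its counting error.

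In prg-1, all 3 piRNAs were at or near 0. novel_21ur-0608 had 0 counts in all 6 prg-1 libraries. With 20261 piRNA counts in the 3 libraries at 48 h, 0 counts allow up to 148 CPM, and with 26502 counts at 72 h up to 113 CPM. Wild type averaged 11.7 and 8.37 CPM, so a difference in CPM was not detectable at this depth. In raw counts wild type had 9 to 12 at 48 h and 6 or 7 at 72 h.

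21ur-6702 had 1, 1 and 0 counts in prg-1 at 48 h and 0, 0 and 1 at 72 h, against 546, 573 and 389 counts and 48, 63 and 88 counts in wild type. Pooled over libraries, its CPM in prg-1 at 48 h was 0.170 of wild type, with a 95% counting interval of 0.0206 to 0.616. At 72 h the ratio of 0.461 rested on 1 count, with an interval of 0.0116 to 2.60. 21ur-2944 had 2, 0 and 1 counts in prg-1 at 48 h and 1, 0 and 0 at 72 h, against 221, 129 and 166 counts and 492, 679 and 402 counts in wild type. Its pooled CPM was 0.0583 of wild type at 72 h, with an interval of 0.00148 to 0.325, and 0.747 at 48 h, with an interval of 0.154 to 2.19. Both piRNAs thus had at most 2 counts in any prg-1 library.

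In the mutant of both snpc genes, novel_21ur-0608 had raw counts that overlapped wild type at 48 h, while 21ur-6702 and 21ur-2944 had at most 6 counts a library. novel_21ur-0608 had 18, 7 and 14 counts at 48 h, against 9, 12 and 9 counts in wild type, although the piRNA total was 2.83% of wild type. The raw counts of the groups overlapped. Its pooled CPM was 45.9 times wild type, with a counting interval of 27.8 to 76.5. At 72 h it had 8, 2 and 1 counts in the mutant of both genes, against 7, 7 and 6 counts in wild type, and its pooled CPM was 15.6 times wild type, with an interval of 6.76 to 34.2. The first library held most of the 72 h counts.

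21ur-2944 had 2, 1 and 0 counts in the mutant of both genes at 48 h and 1, 0 and 1 at 72 h, against 221, 129 and 166 counts and 492, 679 and 402 counts in wild type. Its pooled CPM was 0.205 of wild type at 48 h, with an interval of 0.0422 to 0.604, and 0.0361 at 72 h, with an interval of 0.00437 to 0.131. 21ur-6702 had 3, 6 and 5 counts in that mutant at 48 h, against 546, 573 and 389 counts in wild type, a pooled CPM ratio of 0.328 with an interval of 0.179 to 0.552. At 72 h it had 6, 14 and 2 counts in the mutant, against 48, 63 and 88 counts in wild type, a ratio of 3.14 with an interval of 1.92 to 4.89. The second library held 14 of the 22 counts at 72 h, and in CPM the libraries overlapped at that age, with 247, 410 and 73.5 CPM in the mutant of both genes, against 68.5, 64.5 and 117 CPM in wild type. Its raw counts were below wild type in every library at both ages. These intervals too cover counting error only, not the spread between libraries. No test was made for prg-1 or the mutant of both genes, since their wild type is the one the choice used and their totals were 0.779% to 3.52% of it.

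**Figure D4:**
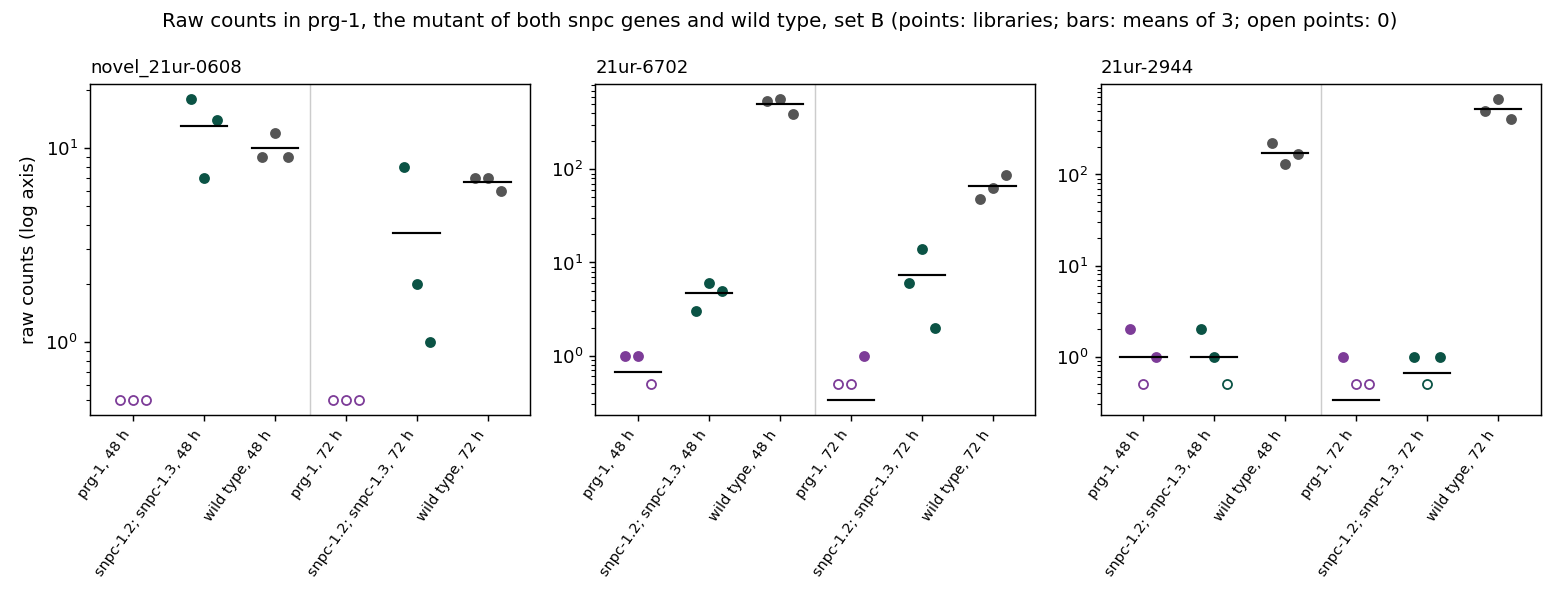
Raw counts of each piRNA on a log axis in prg-1 libraries, libraries of the mutant of both snpc genes and wild-type libraries of set B at 48 h and 72 h; points are libraries, bars are means of 3 and open points are libraries at 0. novel_21ur-0608 has 7 to 18 counts in the mutant of both genes at 48 h, beside 9 to 12 in wild type, while 21ur-6702 and 21ur-2944 have at most 6 counts there.

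The orders that follow are of CPM, across sets, and were not repeated with the TMM factors. Those factors were 2.19 to 2.57 in snpc-1.2 at 72 h, against 0.800 to 0.842 in mut-16 at 48 h. Raw counts of novel_21ur-0608 in these groups were 14 to 25 and 78 to 149. Over the 14 groups with a mean piRNA total of at least 100000 counts, novel_21ur-0608 was highest in snpc-1.2 at 72 h with 106 ± 16.1 CPM. This leaves aside wild type of set C at 72 h, whose mean rests on the library of 9912 counts. mut-16 and hrde-1 at 48 h came next with 89.2 ± 10.5 and 80.4 ± 14.2 CPM, then hrde-1 and mut-16 at 72 h with 51.4 ± 10.4 and 41.5 ± 7.27 CPM (SD, n = 3 each). snpc-1.2 at 72 h overlapped mut-16 at 48 h, the 2 mutants overlapped each other at each age, and a gap lay between the ages and below mut-16 at 72 h. snpc-1.3 and snpc-1.2 at 48 h followed with 24.1 ± 1.02 and 21.8 ± 2.08 CPM (SD, n = 3 each), beside wild type of set C at 48 h. Another gap set these apart from wild type of sets A and B and snpc-1.3 at 72 h, which all averaged between 4.42 and 11.7 CPM and overlapped their neighbours in the order.

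In CPM, 21ur-6702 was highest in hrde-1 at 48 h. It was followed by snpc-1.2 at 72 h with 1227 ± 91.0 CPM and snpc-1.2 at 48 h with 1037 ± 81.2 CPM (SD, n = 3 each). None of these overlapped the next, but hrde-1 reached down to 1284 CPM and snpc-1.2 at 72 h up to 1283 CPM. Raw counts were 1005 to 1475 in hrde-1 at 48 h and 149 to 353 in snpc-1.2 at 72 h. Wild type of set A, mut-16 and wild type of set B, all at 48 h, then overlapped one another with means of 583 to 718 CPM. A gap divided them from wild type of set C at 48 h and from the 72 h groups other than snpc-1.2. snpc-1.3 at 72 h was the lowest with 27.3 ± 4.71 CPM (SD, n = 3), below snpc-1.3 at 48 h with no overlap.

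21ur-2944 was highest in hrde-1 at 72 h, with no overlap with snpc-1.3 at 72 h, the next at 860 ± 91.4 CPM (SD, n = 3). From there down to wild type of set C at 48 h, at 171 ± 74.0 CPM (SD, n = 3), each group overlapped the next. A gap of more than 100 CPM followed, and both snpc-1.2 groups stood below it with means of 8.90 and 2.53 CPM.

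The profiles of the 3 over these 14 groups differed. Pearson's r of the group means of log2 CPM was -0.68 between 21ur-6702 and 21ur-2944, 0.41 between novel_21ur-0608 and 21ur-6702, and -0.27 between novel_21ur-0608 and 21ur-2944. The groups share sets, ages and wild-type libraries, so r is a description and has no test. The 14 groups include wild type of set C at 72 h, where novel_21ur-0608 had 504 CPM from 5 counts in the library of 9912. Values of r without that group were not computed, here or for the likeness below.

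Among the 8511 other piRNAs tested, those most like 21ur-6702 were 21ur-7504, 21ur-6720 and 21ur-2156, each with r 0.99. 21ur-2156 averaged 998 CPM in hrde-1 at 48 h, against 507 CPM in wild type of set B, and 76.4 CPM in snpc-1.3 at 48 h, against 551 CPM in wild type of set A. It starts 4378 bases from 21ur-6702, and 21ur-6720 starts 18845 bases from it, while 21ur-7504 starts 8280680 bases away on the same chromosome.

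The piRNAs most like 21ur-2944 were 21ur-3401 with r 0.99, 21ur-8645 with r 0.99 and 21ur-1626 with r 0.98. All 3 were at 0 counts in every snpc-1.2 library, groups that the measure of likeness includes. By Spearman's rho the 3 most like were others, and 1 of them, 21ur-4578 with rho 0.97, averaged 438 CPM in snpc-1.2 at 72 h, against 1637 CPM in wild type of set A. 21ur-3401 starts 206 bases from 21ur-2944 on the other strand, and averaged 193 CPM in hrde-1 at 72 h, against 81.3 CPM in wild type of set B. For novel_21ur-0608 the likeness was weaker, with r 0.78 for 21ur-5477, 0.75 for novel_21ur-0297 and 0.71 for novel_21ur-0370. 21ur-5477, the most alike, averaged 368 CPM in snpc-1.2 at 72 h, against 260 CPM in wild type of set A, and 472 CPM in mut-16 at 48 h, against 387 CPM in wild type of set B. The third, novel_21ur-0370, averaged 215 CPM in snpc-1.2 at 72 h, against 20.6 CPM in wild type of set A, and 40.5 CPM in mut-16 at 48 h, against 14.5 CPM in wild type of set B. The piRNAs nearest to novel_21ur-0608 on chromosome III, novel_21ur-0609 and novel_21ur-0607, were 14526 and 94996 bases away. novel_21ur-0609 averaged 13.3 CPM in mut-16 and 8.69 CPM in hrde-1 at 48 h, against 13.8 CPM in wild type. novel_21ur-0607 averaged 14.7 CPM in mut-16 and 13.0 CPM in hrde-1 at 48 h, against 7.55 CPM in wild type. In the mutant of both snpc genes at 48 h, novel_21ur-0609 averaged 538 CPM, against 13.8 CPM in wild type, and novel_21ur-0607 averaged 349 CPM, against 7.55 CPM in wild type. The piRNA total there was 2.83% of wild type, so CPM can be higher with no more counts. Over the 54 libraries these piRNAs never exceeded 27 and 65 counts, in the same order.

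**Figure D5:**
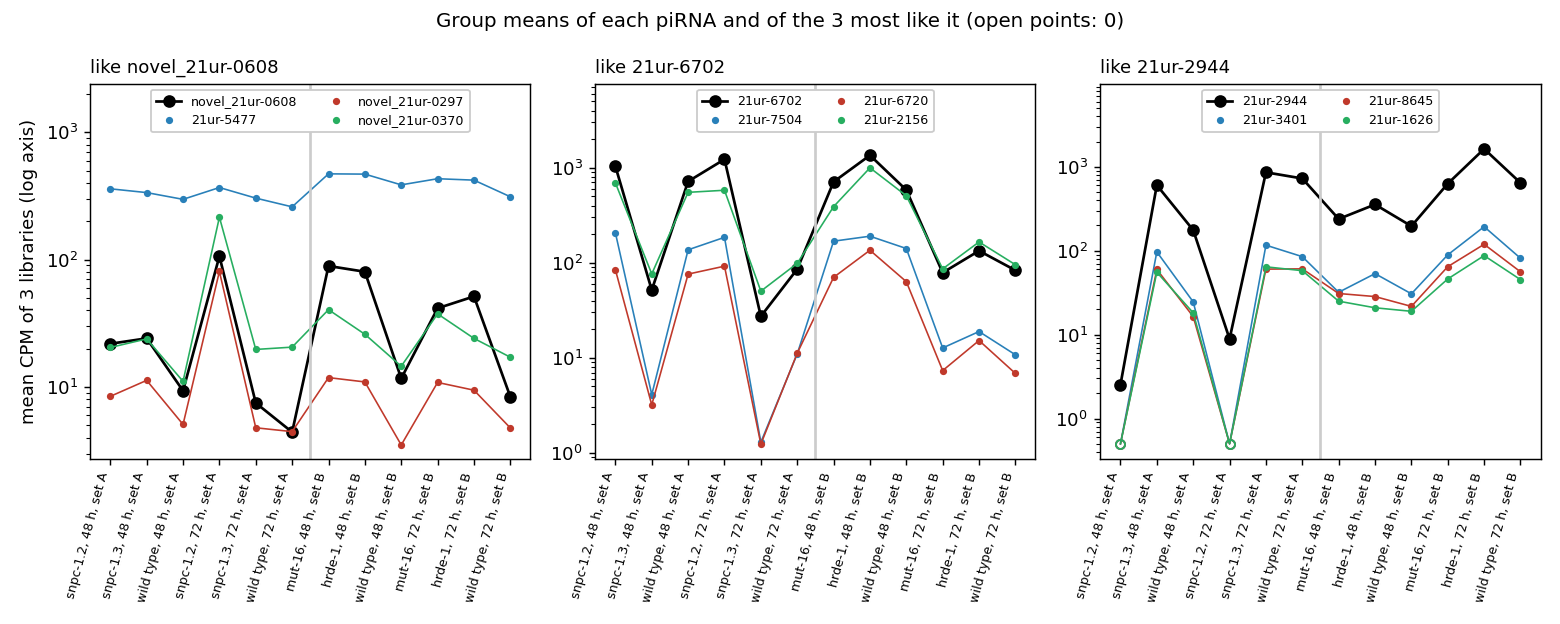
Mean CPM of 3 libraries on a log axis for each piRNA, in black, and for the 3 piRNAs with the most similar profiles, over the groups of set A and, right of the grey line, of set B; open points are means of 0. The lines join groups for reading only. The piRNAs most like 21ur-2944 by Pearson's r are at 0 in both snpc-1.2 groups, and those most like 21ur-6702 by the same measure are at their lowest in snpc-1.3 at 72 h.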

How the data were processed

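Small RNA libraries of whole worms were made, per the labels' protocols, with RNA 5′ polyphosphatase treatment and a NEBNext small RNA kit. Per the submitters' processing notes, Trimmomatic 0.39, Bowtie 1.1.1, HTSeq and edgeR were used with WBcel235, and their settings are not given in the sources used here. The authors deposited raw counts per piRNA, which are the main data here, and corrected log2 CPM values, used in 1 alternative. Of 66 samples, 54 had a column. The other 12 samples are mutants labelled as set C and were left out, and 12 columns that match no sample were not used, so the design written for 66 libraries was run on 54.

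edgeR 4.0.16 in R 4.3.3 fitted all 54 libraries with TMM scaling and 1 mean per set, genotype and age. The filter (filterByExpr, minimum count 10, minimum total 15) left 8512 of 17114 piRNAs, and adjusted p-values are Benjamini-Hochberg over these, with a threshold of 0.05. Printed fold changes are shrunken by the prior count, and the SE is the unshrunken log2 fold change divided by the square root of F. CPM divides by the sum of piRNA counts. Intervals are 95% and cover counting error only, and 0 counts are taken to allow 3. Alternatives used limma 3.58.1, DESeq2 1.42.0, other scalings, other filters, fits of single sets, replicate blocks and each replicate left out. The fit was also run on simulated libraries of set A, with equal numbers of piRNAs raised and lowered and the rest unchanged. That setting does not cover snpc-1.2, where the direction of the calls turned on the scaling.

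The members and lists were chosen with earlier results of these data known. Named piRNAs are the 3 members, the nearest 2 to each on its chromosome, the 3 with the most similar profile by Pearson's r of group means of log2 CPM (prior count 2), and the 2 most abundant of each list of piRNAs higher in mut-16 or hrde-1. No label says that replicates are separate cultures, so p-values measure the spread between these libraries, which may be technical. Same-numbered libraries deviated together, with every correlation over 0.1, in set B at 48 h (0.117 to 0.307), for wild type of set C across ages (0.114 to 0.311) and for snpc-1.2 with wild type at 48 h, and not in every pair elsewhere. Upstream motifs and genome-wide matches were not searched.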

Additional observations from a re-analysis of the deposited data

Results flagged for a closer look

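In 4 cases the change with a mutation differed between ages, by the edgeR test of the difference, 72 h minus 48 h, in log2 units. With snpc-1.2 the difference was 2.27 for novel_21ur-0608 (adjusted p 0.011) and 2.33 for 21ur-6702 (adjusted p 5.0e-05). With snpc-1.3 it was 1.83 for 21ur-6702 (edgeR adjusted p 0.0023) and -1.90 for 21ur-2944 (edgeR adjusted p 0.00099). All 3 piRNAs therefore appear at least once, where 31% of all piRNAs tested passed with snpc-1.2 and 39% with snpc-1.3. The median difference over all piRNAs with snpc-1.2 was 0.31 with TMM and 1.35 by the sum of piRNA counts. The 72 h wild-type counts of novel_21ur-0608 behind its value were 1, 5 and 4, and the piRNA totals of snpc-1.2 were 64.2% of wild type at 48 h and 25.7% at 72 h, and the part of these totals in the result was not tested.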

How the results depend on the processing

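Counts of 1 to 12 per library in wild type of sets A and B limit novel_21ur-0608, and 0 to 3 counts per snpc-1.2 library limit 21ur-2944. With age in set C, novel_21ur-0608 had log2 values of 0.17 (DESeq2 size factors), 0.68 (limma) and 0.62 (DESeq2), and 21ur-2944 had 0.87 (limma). With snpc-1.2 at 48 h, novel_21ur-0608 had 1.47 (DESeq2 size factors) and 1.21 (sum of counts), and 21ur-6702 had 0.82 (DESeq2 size factors), 0.53 (sum), 0.52 (limma), 0.82 (DESeq2) and -0.54 (set A alone). With snpc-1.3 at 48 h, novel_21ur-0608 had 1.29 (DESeq2). With mut-16 at 72 h, 21ur-6702 had -0.020 (DESeq2 size factors), -0.080 (sum) and -0.20 (set B alone), and 21ur-2944 had -0.031 (sum) and -0.16 (set B alone). The causes were not tested.

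Leaving out a replicate gave -0.70 to 0.87 for novel_21ur-0608 and 0.91 to 1.70 for 21ur-2944 with age in set C. It gave -0.53 to 0.25 for 21ur-6702 with snpc-1.2 at 48 h, -1.59 to -1.11 for 21ur-6702 with snpc-1.3 at 72 h and -0.055 to 0.43 for 21ur-6702 with mut-16 at 72 h. The other member results kept direction and side of the threshold without each replicate.

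Over all piRNAs, the calls with age in set C were 3630, against 1440 with set C alone and 2317 to 4079 without a replicate. snpc-1.2 at 48 h had 3709, against 2057 in limma and 2321 to 3695 without a replicate, and at 72 h 9686 in limma against 5630. hrde-1 at 48 h had 69, against 123 with set B alone and 23 to 48 without a replicate. The other ranges without a replicate were 511 to 755 for snpc-1.3 at 72 h, 106 to 398 and 402 to 746 for mut-16 at 48 h and 72 h, and 29 to 92 for hrde-1 at 72 h. Higher and lower calls were 5 and 3704 with snpc-1.2 at 48 h, against 783 and 2063 with DESeq2 size factors and 264 and 2223 by the sum. At 72 h they were 1961 and 3669, against 3948 and 2708 and, by the sum, 4251 and 2604. With DESeq2 size factors they were 2117 and 3830 with age in set A, against 3184 and 3397, and 1931 and 1873 in set C, against 1451 and 2179. For the difference between ages they were 2323 and 475 with snpc-1.2, against 1883 and 754 (3157 and 291 by the sum), and 1375 and 1100 with snpc-1.3, against 1094 and 2226 (1373 and 1772 by the sum). With hrde-1 at 48 h they were 27 and 43 by the sum, against 19 and 50.

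With the replicate number as a block, no member call changed and no count moved by over 1.5 times; across ages in set C, where the block was added after seeing the data, 21ur-2944 stood at 1.18 (edgeR adjusted p 0.0030).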
